A study of Mus musculus with 12 samples.

Results

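The genes described here are 37 genes of glucose metabolism and the hypoxia response: the glucose transporter Slc2a1, the enzymes from hexokinase to lactate dehydrogenase, the lactate carriers Slc16a1 and Slc16a3, the pentose phosphate enzymes, the pyruvate dehydrogenase complex with its kinase Pdk1, and the hypoxia genes Hif1a, Egln1, Egln3 and Bnip3. They were chosen by name, with earlier results of these data known. They are the rows of the deposited tables whose Ensembl mouse gene ID maps to 1 of the 37 symbols, out of 55536 IDs in all. The 37 symbols matched 38 rows, because Aldoa has a second ID. The cells were mouse embryonic fibroblasts (MEFs), for which the labels used here give no strain or genotype. They were grown in high-glucose DMEM with fetal bovine serum and then held for 6 h in the same medium with dialyzed serum, either with halofuginone (HF) at 100 nM or without it. Control cells therefore had the dialyzed serum as well. Total RNA and ribosome-protected footprints (RPF), taken from the monosome peak of a sucrose gradient after RNase I digestion, were sequenced, which gave 4 groups of 3 libraries and 12 libraries in all.

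Glycolysis splits glucose into pyruvate through a chain of cytosolic enzymes, most of which exist as several isozymes encoded by separate genes. The pentose phosphate pathway branches off at glucose 6-phosphate and supplies NADPH and ribose. Many glycolytic genes are targets of hypoxia-inducible factor 1, whose alpha subunit Hif1a is degraded after hydroxylation by the Egln enzymes, and of Myc. Halofuginone inhibits prolyl-tRNA synthetase, and uncharged tRNA is the activating signal of the kinase GCN2. The study's title places the experiment in the regulation of GCN2 and mTORC1 in nutrient stress, and mTORC1 is known as a positive regulator of glycolytic and pentose phosphate gene expression.

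The libraries held 718096 to 1295434 counts (RNA, control), 1017651 to 1697554 (RNA, HF), 724609 to 2527791 (RPF, control) and 562794 to 1958356 (RPF, HF). Levels are given as CPM (counts scaled to a common library size after TMM), so a change is relative to the bulk of genes and an equal change of all RNA would not be seen. Footprints were scaled among their own libraries, so an equal change of all footprints would not be seen either. Changes of footprints relative to RNA hold the same limit. The ribosomal RNA locus Gm42418 took 11.8% to 13.7% of the counts in control RNA and 7.35% to 9.48% in HF RNA. Without that row the test called 4 members higher and 18 lower in RNA, as with it. Of 11 fibroblast markers, Dcn and Lum were at 0 in RNA and Lum in footprints. The summed level of the 11 was 6429 to 6757 CPM in control RNA and 4606 to 4756 in HF RNA, and 13945 to 14800 and 8593 to 8734 CPM in footprints, and their part in the results was not tested. The summed markers of epithelial, immune and neural cells ranged from 0 to 10.5 CPM. The sum of 5 endothelial markers was 0 to 1.61 CPM in control RNA and 5.28 to 15.7 in HF RNA, without overlap, and 0 to 4.05 and 3.35 to 12.4 CPM in footprints. In RNA and in HF footprints most of it was Kdr, with 2 counts in control and 36 in HF RNA and 8 and 28 in footprints. Cdh5 had 0 counts in control and 2 in HF RNA, and 8 and 0 in footprints, the other way from Kdr. Pecam1, Tek and Emcn were at 0 in all groups. The part of these markers in the results was not tested. The labels do not state that the 3 libraries of a group are separate cultures. The p-values therefore cover library-to-library spread, part or all of which may be technical. Fewer cells that hold an RNA and less of that RNA in each such cell cannot be told apart in bulk samples.

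After HF most of the glycolytic and pentose phosphate genes were lower in RNA and in footprints, with Eno2, neuron-type enolase, as the largest exception, at 15.3-fold higher in RNA and 13.7-fold higher in footprints. The size of the Eno2 rise is uncertain, since its control libraries together held 14 RNA and 34 footprint counts. With 1 library left out it was log2 3.62 to 4.34 in RNA and 3.35 to 4.70 in footprints. Of 31 members with enough RNA counts to be tested, 18 fell and 4 rose (Slc2a1, Hk2, Eno2 and Hif1a), by edgeR's quasi-likelihood test at a Benjamini-Hochberg adjusted p under 0.05 over all genes. Over all 9145 genes tested in RNA, 43.7% were called, 22.2% as higher and 21.4% as lower, so the 58.1% of members called lower stands beside 21.4%. The members' median log2 fold change was −0.53, and that of all genes −0.02. In RNA, 7 members fell at least 2-fold (Pfkl, Pfkm, Pfkfb4, Gapdh, Slc16a3, G6pdx and Pgls), a class that held 9.71% of all genes, and Eno2 was the 1 member that rose that far, as 11.8% of all genes did. In 21 of the 31 members the HF and control libraries did not overlap, against 51.3% of all genes. Without RNA control 3 or without RNA HF 3, and with DESeq2, 2 members rather than 4 were called higher, since Slc2a1 and Hk2 no longer passed.

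Footprints, which count ribosomes on coding mRNAs, gave 15 members lower and 2 higher (Slc2a1 and Eno2) of 30 tested. Over all 8375 protein-coding genes tested, 43.3% were called, 22.4% as higher and 20.9% as lower, against 50% of the members called lower. Their median log2 fold change was −0.56, and that of all genes −0.02. Gpi1, Pfkl, Pfkm, Pfkfb4 and G6pdx fell at least 2-fold, as 10.3% of all genes did, and Eno2 rose that far, as did 11.8%. The libraries of the 2 conditions did not overlap for 20 of the 30 members, against 51.4% of all genes. RNA and footprints shared 12 members lower and 2 higher. Without RPF HF 2 the count of members higher was 4, with Pfkp and Pfkfb3 added. The translational efficiency, here the change of footprints relative to RNA in 1 model over the 12 libraries, was called for 3 of 30 members, or 10%, against 14.4% of the 7922 genes tested. Tpi1 and Pgls rose in it, a class of 6.02% of all genes, and Hif1a fell, a class of 8.41%. The other 27 members did not pass, which does not show that their footprints and RNA moved alike. Footprint counts do not tell moving from paused ribosomes, so a change in efficiency is not read as a change in protein made. The part of paused ribosomes was not tested.

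**Figure D1:**
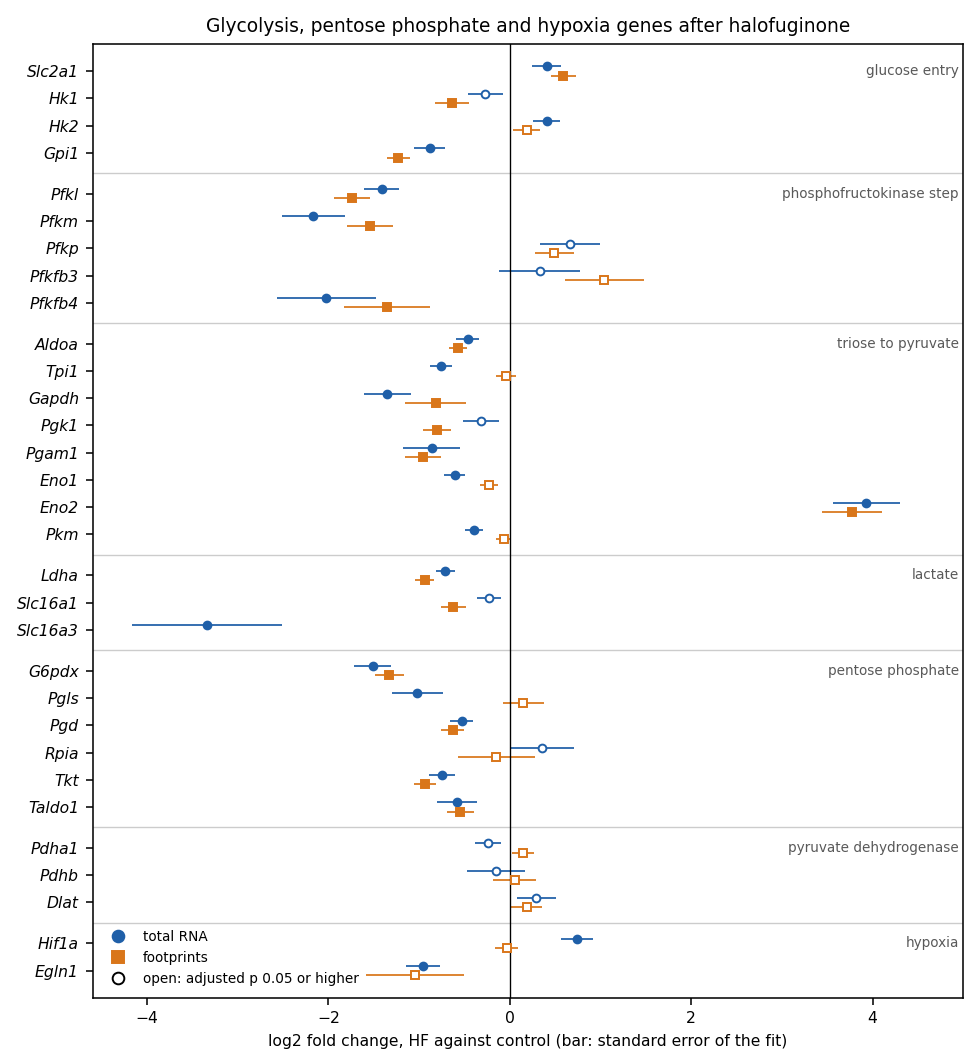
Log2 fold change of each tested member in total RNA (blue circles) and footprints (orange squares), HF against control, with the standard error of the fit as a bar and open symbols where the adjusted p was 0.05 or higher. Most points lie left of 0, with 18 RNA and 15 footprint calls lower, and Eno2 stands alone at 3.93 in RNA and 3.78 in footprints.

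Promoter windows are shown for the enolases Eno1 and Eno2 and the phosphofructokinases Pfkl and Pfkp, because the ratio of the isozymes in both pairs separated all HF from all control libraries. Each window runs from 250 bases before to 50 after the first-listed start of the gene in RefSeq (GRCm38.p6), 5′ to 3′ on the gene's strand. They lie at chr4:150236458-150236757 (plus strand), chr6:124769624-124769923 (minus), chr10:78009758-78010057 (minus) and chr13:6648722-6649021 (minus). Capitals mark ACGTG and GCGTG on either strand, the core letters of the hypoxia response element.
Eno1: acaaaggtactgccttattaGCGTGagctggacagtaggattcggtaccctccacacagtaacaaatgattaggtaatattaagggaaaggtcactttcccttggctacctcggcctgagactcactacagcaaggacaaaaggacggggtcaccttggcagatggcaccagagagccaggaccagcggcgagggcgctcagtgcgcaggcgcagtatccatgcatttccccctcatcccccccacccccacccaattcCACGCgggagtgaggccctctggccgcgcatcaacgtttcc
Eno2: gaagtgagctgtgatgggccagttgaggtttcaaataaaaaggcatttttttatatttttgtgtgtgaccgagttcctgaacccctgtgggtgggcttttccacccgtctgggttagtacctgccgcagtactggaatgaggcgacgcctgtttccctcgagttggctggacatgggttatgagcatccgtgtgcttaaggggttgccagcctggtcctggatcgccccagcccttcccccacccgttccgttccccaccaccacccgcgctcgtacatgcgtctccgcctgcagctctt
Pfkl: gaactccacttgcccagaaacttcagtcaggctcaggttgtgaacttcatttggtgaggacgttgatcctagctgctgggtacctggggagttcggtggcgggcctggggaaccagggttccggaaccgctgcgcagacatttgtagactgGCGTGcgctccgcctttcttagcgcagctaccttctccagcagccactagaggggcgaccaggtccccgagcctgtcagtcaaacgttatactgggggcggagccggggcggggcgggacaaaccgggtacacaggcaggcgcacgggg
Pfkp: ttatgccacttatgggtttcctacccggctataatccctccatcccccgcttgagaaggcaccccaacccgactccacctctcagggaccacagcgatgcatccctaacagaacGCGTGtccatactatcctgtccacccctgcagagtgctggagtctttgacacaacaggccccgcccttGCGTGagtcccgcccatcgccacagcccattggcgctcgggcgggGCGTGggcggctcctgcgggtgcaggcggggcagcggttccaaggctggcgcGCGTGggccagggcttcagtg
Eno1 held GCGTG 2 times, Pfkl 1 time and Pfkp 4 times, while neither motif was in the Eno2 window. ACGTG stood in 18 of the 37 member windows (48.6%) and in 19.7% of 27025 RefSeq windows of the same length. GCGTG stood in 23 (62.2%, against 32.5%) and 1 or the other in 30 (81.1%, against 43.8%). CACGTG, the E-box read by Myc and the Mlx family, which contains ACGTG on both strands, was in 6 (16.2%, against 7.24%). TGATGNAA, letters of the element read by Atf4 with C/EBP partners, was in 0 of 37 and in 4.06% of all windows. Base composition was not matched between members and all genes, and a match is a description of letters, not a binding site.

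Glucose enters fibroblasts mainly through Slc2a1 (GLUT1), and the hexokinases Hk1 and Hk2 trap it as glucose 6-phosphate, which Gpi1 isomerizes to fructose 6-phosphate. Of these 4 members, 2 rose, 1 fell and 1 did not pass in RNA, and 1 rose, 2 fell and 1 did not pass in footprints. The shares of all genes were 22.2% higher and 21.4% lower in RNA, and 22.4% and 20.9% in footprints. Slc2a1 RNA stood at 117, 104 and 99.8 CPM in control and at 138, 147 and 143 CPM in HF, and its footprints at 165, 196 and 163 CPM against 294, 239 and 248. The HF libraries were above every control library in both assays. The rise was 1.33-fold in RNA (log2 0.41 ± 0.16 SE, edgeR adjusted p = 0.032) and 1.51-fold in footprints (log2 0.59 ± 0.14, edgeR adjusted p = 0.00086). Its RNA call was lost without RNA control 2 or 3 and without RNA HF 2 or 3 (log2 0.36 to 0.43, edgeR adjusted p 0.063 to 0.11).

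Hexokinase 2, the inducible isozyme, was at 144, 159 and 107 CPM in control RNA and 190, 172 and 180 CPM in HF RNA, with no overlap. Hk2 RNA rose 1.33-fold (log2 0.41 ± 0.15, edgeR adjusted p = 0.022). Its footprints were 179, 165 and 190 CPM in control and 213, 229 and 157 in HF, which overlapped (log2 0.19, edgeR adjusted p = 0.32). The RNA call rested on single libraries: it was lost without RNA control 3 (log2 0.26, edgeR adjusted p = 0.21), RNA HF 1 (0.053) or RNA HF 3 (0.051). Hk1 showed the reverse assignment of calls. Its RNA overlapped between the conditions (83.7, 111 and 96.6 CPM against 94.1, 72.7 and 73.6, log2 −0.27, edgeR adjusted p = 0.27). Footprints on Hk1 were 138, 167 and 150 CPM in control and 83.3, 83.6 and 137 CPM in HF, a 1.56-fold fall without overlap (edgeR adjusted p = 0.0055), with HF 3 close under the lowest control. Without RPF HF 1 that call was lost (log2 −0.47, edgeR adjusted p = 0.069). The log2 ratio of Hk2 to Hk1 RNA counts was 0.78, 0.51 and 0.15 in control and 1.01, 1.24 and 1.28 in HF, which did not overlap (difference 0.70, two-sided exact permutation p = 0.1, the smallest that 3 against 3 allows, adjusted p = 0.2 over 12 ratios). In footprints the ratio differed by 0.77 with overlap (exact permutation p = 0.3).

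Gpi1 (chr7:34201327-34230336) moved the other way from the transporter above it in the pathway. Its RNA was 150, 144 and 146 CPM in control and 82.7, 81.5 and 75.4 CPM in HF, and its footprints 345, 378 and 371 CPM against 150, 161 and 159. All HF libraries lay far under all controls in both assays. The fall was 1.84-fold in RNA (edgeR adjusted p = 1.5e-05) and 2.34-fold in footprints (log2 −1.23 ± 0.13, edgeR adjusted p = 2.5e-09). Summed over the 4 glucose-entry members, the share of protein-coding counts was 0.0632% ± 0.00464 (SD, n = 3) in control RNA and 0.0591% ± 0.00216 in HF RNA, which overlapped, and 0.0889% ± 0.00406 and 0.0689% ± 0.000493 in footprints, which did not.

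Phosphofructokinase commits fructose 6-phosphate to glycolysis, and its liver, muscle and platelet subunits are encoded by Pfkl, Pfkm and Pfkp. The liver and muscle subunits fell in both assays, and the platelet subunit did not pass the test in either. Pfkl RNA (chr10:77986947-78009807) was 125, 118 and 177 CPM in control and 50.1, 42.2 and 63.0 CPM in HF, and its footprints 180, 190 and 183 CPM against 61.3, 30.1 and 70.1. No HF library reached a control library. This was a 2.66-fold fall in RNA (log2 −1.41 ± 0.20, edgeR adjusted p = 1.1e-08) and a 3.33-fold fall in footprints (log2 −1.74 ± 0.20, edgeR adjusted p = 1.3e-08). Pfkm RNA (chr15:98092589-98132447) was 46.7, 52.2 and 57.8 CPM in control and 15.0, 5.89 and 13.0 CPM in HF, and its footprints 93.7, 71.7 and 70.2 CPM against 21.9, 36.8 and 28.4. It fell 4.49-fold in RNA (log2 −2.17 ± 0.35, edgeR adjusted p = 5e-07) and 2.91-fold in footprints (log2 −1.54 ± 0.26, edgeR adjusted p = 1.2e-05), again without overlap.

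Pfkp RNA (chr13:6579874-6649060) was 29.0, 15.5 and 21.0 CPM in control and 37.8, 27.5 and 40.6 CPM in HF, and its footprints 67.3, 68.0 and 44.9 CPM against 94.0, 63.6 and 102. The libraries overlapped in both assays, and the estimates were log2 0.66 (95% interval −0.01 to 1.33, edgeR adjusted p = 0.10) and 0.49 (0.05 to 0.93, edgeR adjusted p = 0.064). Without RPF HF 2 the footprint change passed (log2 0.64, edgeR adjusted p = 0.021). Between the subunits, the log2 ratio of Pfkp to Pfkl RNA counts was −2.09, −2.88 and −3.05 in control and −0.40, −0.61 and −0.63 in HF. In footprints the same ratio was −1.42, −1.48 and −2.01 in control and 0.61, 1.06 and 0.54 in HF. Neither pair of groups overlapped (differences 2.12 and 2.37, exact permutation p = 0.1 each, adjusted p = 0.2). A ratio of counts is not corrected for length, so only its change is read. The ratio of Pfkm to Pfkl differed by −0.84 in RNA (exact permutation p = 0.1, no overlap) and differed by 0.42 in footprints with overlap (p = 0.7), where the sign turned without RPF HF 2 (−0.14).

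The Pfkfb enzymes make and break fructose 2,6-bisphosphate, the activator of phosphofructokinase. Pfkfb4 RNA was 25.8, 11.3 and 30.5 CPM in control and 9.67, 3.93 and 3.53 CPM in HF, and its footprints 19.1, 20.2 and 21.1 CPM against 8.44, 6.69 and 7.58, with no overlap in either. It fell 4.06-fold in RNA (edgeR adjusted p = 0.0016) and 2.55-fold in footprints (edgeR adjusted p = 0.021), and the footprint call was lost without RPF control 1 (edgeR adjusted p = 0.056) or 2 (0.055). With halved counts, Pfkfb4 RNA had too few counts to be tested. Pfkfb3, the isozyme with the highest kinase activity, had estimates above 0 that did not pass, log2 0.33 in RNA (edgeR adjusted p = 0.57) and 1.04 in footprints (95% interval 0.16 to 1.93, edgeR adjusted p = 0.051). Its footprints, 12.2, 11.0 and 8.43 CPM in control and 29.8, 15.1 and 19.0 CPM in HF, did not overlap, and they passed without RPF HF 2 (log2 1.22, edgeR adjusted p = 0.029) or RPF HF 3 (1.13, 0.041). Pfkfb2 had too few counts to be tested, with 3 to 8 RNA counts a library and footprint counts of 0, 0 and 0 in control and 2, 6 and 0 in HF. With no filter its footprints passed as higher (edgeR adjusted p = 0.045).

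**Figure D2:**
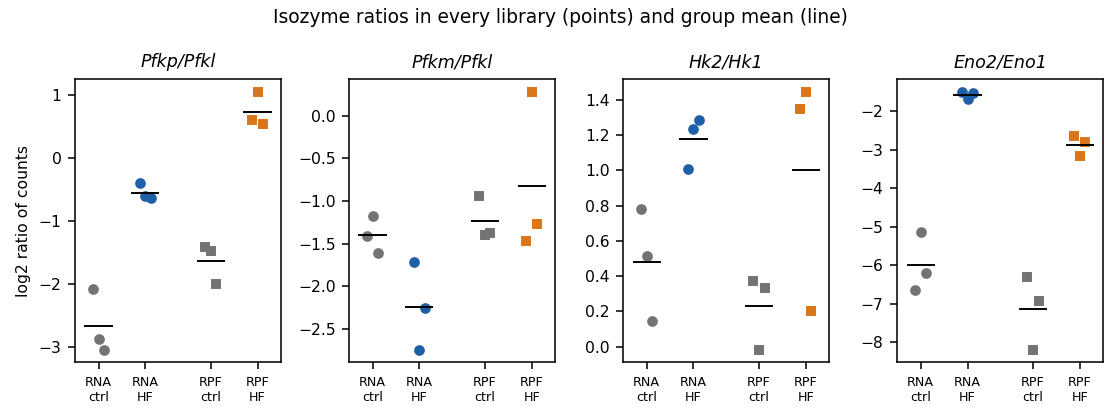
Log2 ratio of counts between isozymes (0.5 counts added) in every library, with the group mean as a line, for RNA (circles) and footprints (squares). Pfkp/Pfkl and Eno2/Eno1 are higher in every HF library of both assays, while Pfkm/Pfkl and Hk2/Hk1 overlap between the conditions in footprints.

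From fructose bisphosphate to pyruvate, 6 of 8 tested members fell in RNA and 1, Eno2, rose. In footprints 4 fell, Eno2 rose and 3 did not pass. Of all genes, 21.4% fell and 22.2% rose in RNA, and 20.9% and 22.4% in footprints. Aldoa, the main aldolase of fibroblasts, fell 1.38-fold in RNA (edgeR adjusted p = 0.0016) and 1.48-fold in footprints (edgeR adjusted p = 9.4e-06), and Aldoc had 0 to 2 counts a library. The second Aldoa ID had too few counts for the filter, with RNA counts of 2, 0 and 0 in control and 12, 9 and 14 in HF. With no filter its RNA passed as higher (edgeR adjusted p = 0.0061), opposite to the main ID, from a control base too low for a fold. Processed copies of Aldoa, Gapdh, Tpi1, Pgk1, Pgam1, Eno1, Pkm and Ldha exist in the mouse genome, and how reads that match several places were counted is not given in the sources used here, so their levels are uncertain.

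Tpi1 is triose phosphate isomerase, and its footprints did not follow its RNA. Its RNA was 294, 340 and 324 CPM in control and 172, 170 and 218 CPM in HF, without overlap. Its footprints were 442, 428 and 414 CPM in control and 389, 447 and 419 CPM in HF, with overlap. RNA fell 1.69-fold (log2 −0.76 ± 0.12, edgeR adjusted p = 6.8e-07), footprints differed by log2 −0.04 (95% interval −0.27 to 0.18, edgeR adjusted p = 0.77), and the translational efficiency rose 1.64-fold (log2 0.71 ± 0.16, edgeR adjusted p = 0.0017). Its mean log2 footprint CPM minus its mean log2 RNA CPM (0.5 CPM added) went from 0.42 ± 0.067 (SE) in control to 1.17 ± 0.13 in HF, from percentile 62.0 to percentile 87.2 of all genes. Gapdh oxidizes glyceraldehyde 3-phosphate and is often used as a reference gene, and the reads counted for it were not constant here. They were few, with a control RNA mean of 77.4 CPM against 713 for Pkm and 498 for Ldha. Whether they stand for all Gapdh mRNA, given its processed copies, was not tested. Gapdh RNA was 58.8, 78.9 and 94.5 CPM in control and 25.5, 37.3 and 28.3 CPM in HF, and its footprints 34.9, 40.4 and 30.9 CPM against 24.8, 10.0 and 22.8. It fell 2.55-fold in RNA (log2 −1.35 ± 0.26, edgeR adjusted p = 1.2e-05) and 1.76-fold in footprints (edgeR adjusted p = 0.047), both without overlap. The footprint call was lost without RPF control 1, 2 or 3 and without RPF HF 2 or 3 (log2 −0.57 to −0.89, edgeR adjusted p 0.051 to 0.18) and with DESeq2 (adjusted p = 0.093).

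Pgk1 makes the first ATP of the pathway. Pgk1 RNA was 101, 86.0 and 80.9 CPM in control and 69.5, 77.6 and 69.5 CPM in HF, which did not overlap but did not pass (log2 −0.32, edgeR adjusted p = 0.19). Its footprints were 324, 257 and 232 CPM against 174, 176 and 112 CPM, a 1.74-fold fall (edgeR adjusted p = 0.00011). The next enzyme, the mutase Pgam1, was lower in both assays. Its RNA was 55.6, 38.1 and 36.8 CPM in control and 21.1, 18.7 and 31.2 in HF, and its footprints 130, 132 and 111 CPM against 69.8, 77.0 and 41.7, without overlap in either. The falls were 1.82-fold in RNA (edgeR adjusted p = 0.020) and 1.94-fold in footprints (edgeR adjusted p = 0.00021). Pgam1 lost its RNA call without RNA control 1 (log2 −0.63, edgeR adjusted p = 0.18), RNA HF 1 (0.076) or RNA HF 2 (0.089).

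Enolase turns 2-phosphoglycerate into phosphoenolpyruvate, with Eno1 as the broadly expressed isozyme and Eno2 as the one known from neurons. Eno2 RNA (chr6:124760053-124769673) had 4, 6 and 4 counts in control and 86, 72 and 138 counts in HF, or 3.22, 8.46 and 4.20 CPM against 75.6, 70.7 and 81.2. Eno2 footprints had 26, 4 and 4 counts in control and 179, 51 and 51 in HF, or 10.5, 2.45 and 5.62 CPM against 101, 85.3 and 96.7. Every HF library was several times above every control library. The rise was 15.3-fold in RNA (log2 3.93 ± 0.36, edgeR adjusted p = 1.6e-14) and 13.7-fold in footprints (log2 3.78 ± 0.33, edgeR adjusted p = 4.1e-11). RPF control 1 held most of the control footprints, and without it the footprint estimate was log2 4.70 (edgeR adjusted p = 5.9e-11).

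Eno1 RNA (chr4:150236708-150248879) was 358, 321 and 345 CPM in control and 213, 228 and 234 CPM in HF, a 1.52-fold fall without overlap (log2 −0.61 ± 0.12, edgeR adjusted p = 1.4e-05). Its footprints, 843, 802 and 768 CPM against 625, 773 and 675 CPM, overlapped (log2 −0.23, edgeR adjusted p = 0.055). The Eno1 footprint change passed without RPF HF 2 (log2 −0.32, edgeR adjusted p = 0.015), and its translational efficiency (log2 0.38, edgeR adjusted p = 0.070) passed without RPF HF 1 (0.46, 0.023). The log2 ratio of Eno2 to Eno1 counts was −6.63, −5.14 and −6.19 in control RNA and −1.49, −1.68 and −1.52 in HF RNA, and −6.29, −8.18 and −6.93 against −2.63, −3.17 and −2.79 in footprints. Neither assay showed overlap (differences 4.42 and 4.27, exact permutation p = 0.1 each, adjusted p = 0.2).

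Pkm, pyruvate kinase, held the most footprint counts of all members. Pkm RNA was 764, 733 and 642 CPM in control and 553, 511 and 561 CPM in HF, without overlap. Its footprints were 1804, 1740 and 1559 CPM in control and 1455, 1633 and 1807 CPM in HF, with overlap. RNA fell 1.32-fold (log2 −0.40 ± 0.10, edgeR adjusted p = 0.00051), and footprints differed by log2 −0.07 (95% interval −0.24 to 0.10, edgeR adjusted p = 0.54). The translational efficiency of Pkm did not pass (log2 0.33, edgeR adjusted p = 0.058), though it did without RNA control 3 (0.40, 0.027) or RPF HF 1 (0.41, 0.011). Summed over the 9 members of this segment, with both Aldoa IDs, the share of protein-coding counts was 0.241% ± 0.0101 (SD, n = 3) in control RNA and 0.166% ± 0.00809 in HF RNA, and 0.430% ± 0.0253 against 0.349% ± 0.0263 in footprints, with no overlap in either assay.

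**Figure D3:**
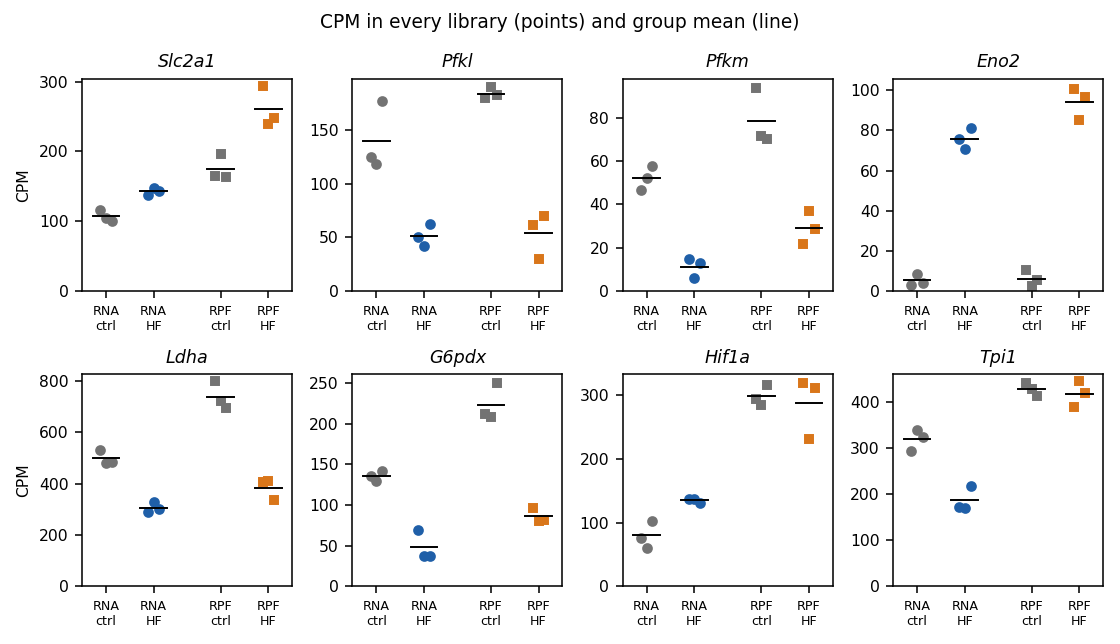
CPM of 8 members in every library (points) with the group mean (line), RNA as circles and footprints as squares, controls in grey. Pfkl, Pfkm, Ldha and G6pdx are lower in every HF library of both assays, Slc2a1 and Eno2 are higher, Tpi1 is lower in RNA alone and Hif1a higher in RNA alone.

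Lactate dehydrogenase A reduces pyruvate to lactate, and the carriers Slc16a1 (MCT1) and Slc16a3 (MCT4) move lactate across the plasma membrane. Ldha RNA (chr7:46842274-46855627) was 530, 481 and 484 CPM in control and 288, 329 and 300 CPM in HF, and its footprints 799, 720 and 695 CPM against 406, 410 and 337. All HF libraries were under all controls. Ldha fell 1.64-fold in RNA (log2 −0.71 ± 0.11, edgeR adjusted p = 6.6e-08) and 1.91-fold in footprints (log2 −0.94 ± 0.11, edgeR adjusted p = 1.2e-08). Ldhb, the other subunit, had 0 to 2 RNA counts and 0 to 16 footprint counts a library and was not tested. Slc16a1 RNA, 216, 221 and 233 CPM in control and 159, 185 and 223 CPM in HF, overlapped and did not pass (log2 −0.23, edgeR adjusted p = 0.16). Its footprints were 356, 351 and 367 CPM against 200, 309 and 197 CPM, a 1.54-fold fall without overlap (edgeR adjusted p = 0.00053). Slc16a1 passed in translational efficiency without RPF HF 2 (log2 −0.62, edgeR adjusted p = 0.026). Slc16a3 had few reads. Its RNA had 18, 8 and 9 counts in control and 2, 2 and 0 in HF, or 14.5, 11.3 and 9.45 CPM against 1.76, 1.96 and 0, and it fell by 3.34 ± 0.83 on the log2 scale (edgeR adjusted p = 0.00066), or by 2.57 without RNA HF 3. Without RNA control 1, or with halved counts, Slc16a3 RNA had too few counts to be tested. Its footprints, 8, 20 and 6 counts against 0, 6 and 4, were too few to be tested.

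In the pentose phosphate pathway 5 of 6 members fell in RNA and 4 of 6 in footprints, beside 21.4% and 20.9% of all genes. No member of it rose in either assay. G6pdx (chrX:74409483-74428880), the X-linked glucose 6-phosphate dehydrogenase that commits glucose to the pathway and makes NADPH, fell most. Its RNA was 136, 130 and 142 CPM in control and 69.5, 37.3 and 37.7 CPM in HF, and its footprints 212, 208 and 250 CPM against 96.8, 80.3 and 81.5. Both assays separated the conditions fully. The fall was 2.85-fold in RNA (log2 −1.51 ± 0.20, edgeR adjusted p = 5.8e-09) and 2.51-fold in footprints (log2 −1.33 ± 0.16, edgeR adjusted p = 4.6e-08). Pgd, the second NADPH-making dehydrogenase, was at 327, 240 and 264 CPM in control RNA and 168, 201 and 208 CPM in HF RNA, and at 473, 434 and 471 CPM against 365, 234 and 267 CPM in footprints. It fell 1.44-fold in RNA (edgeR adjusted p = 0.00049) and 1.55-fold in footprints (edgeR adjusted p = 0.00019), without overlap.

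Pgls, the lactonase between these dehydrogenases, fell in RNA and not in footprints. Its RNA was 78.9, 29.6 and 58.8 CPM in control and 29.9, 24.6 and 30.0 CPM in HF, which overlapped by the low control 2. Its footprints were 56.8, 71.1 and 46.4 CPM in control and 57.4, 80.3 and 64.5 CPM in HF, also overlapping. RNA fell 2.02-fold (log2 −1.02 ± 0.29, edgeR adjusted p = 0.0027), footprints differed by log2 0.15 (edgeR adjusted p = 0.62), and the translational efficiency rose 2.27-fold (log2 1.18 ± 0.38, edgeR adjusted p = 0.028). Both Pgls calls rested on RNA control 1: without it RNA was log2 −0.67 (edgeR adjusted p = 0.12) and efficiency 0.84 (0.19). The efficiency call was also lost without RNA HF 2 or 3, RPF control 1 or 3, or RPF HF 2 (log2 1.04 to 1.21, edgeR adjusted p 0.052 to 0.076).

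The non-oxidative branch returns pentoses to glycolysis through transketolase (Tkt) and transaldolase (Taldo1). Tkt RNA was 233, 199 and 206 CPM in control and 151, 114 and 117 CPM in HF, and its footprints 470, 419 and 487 CPM against 236, 256 and 228. It fell 1.68-fold in RNA (edgeR adjusted p = 1.6e-05) and 1.91-fold in footprints (log2 −0.93 ± 0.12, edgeR adjusted p = 1.2e-07), without overlap. Taldo1 RNA was 62.8, 93.0 and 104 CPM in control and 64.2, 56.0 and 51.8 CPM in HF, with overlap, and its footprints 202, 200 and 230 CPM against 138, 125 and 173, without. Taldo1 fell 1.50-fold in RNA (edgeR adjusted p = 0.025) and 1.46-fold in footprints (edgeR adjusted p = 0.0042). The Taldo1 RNA call was lost without RNA control 2 or 3 or RNA HF 2 or 3 (log2 −0.42 to −0.56, edgeR adjusted p 0.065 to 0.18) and with DESeq2 (adjusted p = 0.062). Rpia, ribose 5-phosphate isomerase, passed in neither assay (log2 0.36 and −0.15), with 95% intervals of −0.36 to 1.07 and −1.02 to 0.71 that leave changes in both directions possible. The 6 members together made up 0.103% ± 0.0101 (SD, n = 3) of protein-coding counts in control RNA and 0.0593% ± 0.00297 in HF RNA, and 0.146% ± 0.00744 and 0.0812% ± 0.00390 in footprints, with no overlap.

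**Figure D4:**
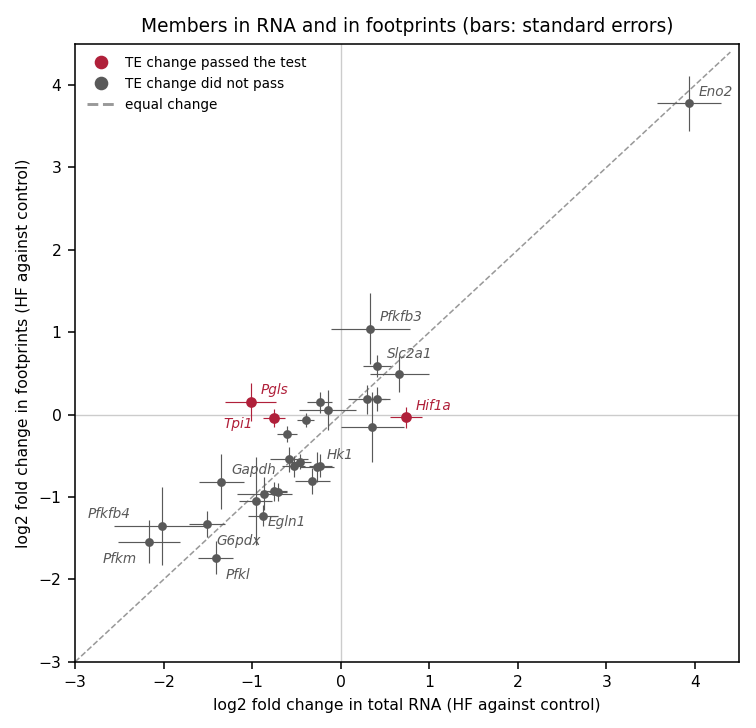
Log2 fold change in footprints against that in RNA for the 30 members tested in both, with standard errors, and red points where the translational efficiency passed the test. Of the red points, Tpi1 and Pgls lie above the line of equal change and Hif1a lies under it. Some members that did not pass also lie off the line. In log2 translational efficiency, Pfkfb3 (0.72) and Pfkfb4 (0.69) lie above it and Rpia (−0.51) lies under it.

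Pyruvate dehydrogenase turns pyruvate into acetyl-CoA in mitochondria. None of its 3 tested subunits passed edgeR's test in either assay, which 43.7% of all genes did in RNA and 43.3% in footprints. The estimates for Pdha1, Pdhb and Dlat were log2 −0.24, −0.15 and 0.29 in RNA (95% intervals −0.53 to 0.05, −0.79 to 0.49 and −0.13 to 0.72) and 0.15, 0.05 and 0.19 in footprints (−0.10 to 0.40, −0.43 to 0.54 and −0.17 to 0.54). Dlat passed in RNA without RNA control 2 (log2 0.60, edgeR adjusted p = 0.030). Pdha1 footprints, 257, 241 and 257 CPM in control and 282, 283 and 269 CPM in HF, did not overlap. The kinase Pdk1, which inhibits the complex and is a textbook HIF1 target, was under the count filter. Its RNA counts were 16, 12 and 8 in control and 0, 0 and 4 in HF, without overlap, and with no filter on low counts it was lower (log2 −3.51, edgeR adjusted p = 0.0013). Pdk1 footprint counts were 8, 4 and 6 against 1, 2 and 2.

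Hif1a (chr12:73901324-73947554) rose in RNA and not in footprints. Its RNA was 76.5, 60.6 and 103 CPM in control and 136, 138 and 131 CPM in HF, without overlap. Its footprints were 293, 285 and 316 CPM in control and 320, 231 and 311 CPM in HF, with overlap. RNA rose 1.67-fold (log2 0.74 ± 0.18, edgeR adjusted p = 0.00051), footprints differed by log2 −0.03 (95% interval −0.30 to 0.23, edgeR adjusted p = 0.86), and the translational efficiency fell 1.71-fold (log2 −0.77 ± 0.22, edgeR adjusted p = 0.011). The mean log2 footprint CPM minus the mean log2 RNA CPM was 1.92 ± 0.22 (SE) in control, at percentile 96.5 of all genes, and 1.07 ± 0.15 in HF, at percentile 84.7.

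Egln1 (chr8:124908587-124949254), the main oxygen-sensing hydroxylase of Hif1a, had the lowest footprint level relative to RNA among the 30 members. Egln1 RNA was 133, 113 and 135 CPM in control and 57.2, 77.6 and 63.0 CPM in HF, without overlap. Its footprints were 13.8, 17.2 and 11.2 CPM in control and 6.75, 10.0 and 3.79 CPM in HF, also without overlap. RNA fell 1.95-fold (log2 −0.96 ± 0.19, edgeR adjusted p = 1.8e-05), while footprints, with 20 counts over the HF libraries, did not pass (log2 −1.04, 95% interval −2.14 to 0.05, edgeR adjusted p = 0.12). The same log2 difference, footprints minus RNA, was −3.15 ± 0.19 in control, at percentile 0.593 of all genes, and −3.26 ± 0.40 in HF, at percentile 1.07. Over all 7922 genes the log2 difference in control had a median of 0.11 and quartiles of −0.63 and 0.81. Egln3, an inducible hydroxylase, and Bnip3, a mitophagy receptor, had at most 20 counts in any library and were not tested. Egln3 RNA counts were 10, 4 and 6 in control and 20, 10 and 10 in HF, and Bnip3 RNA counts 0, 7 and 6 against 2, 1 and 2.

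**Figure D5:**
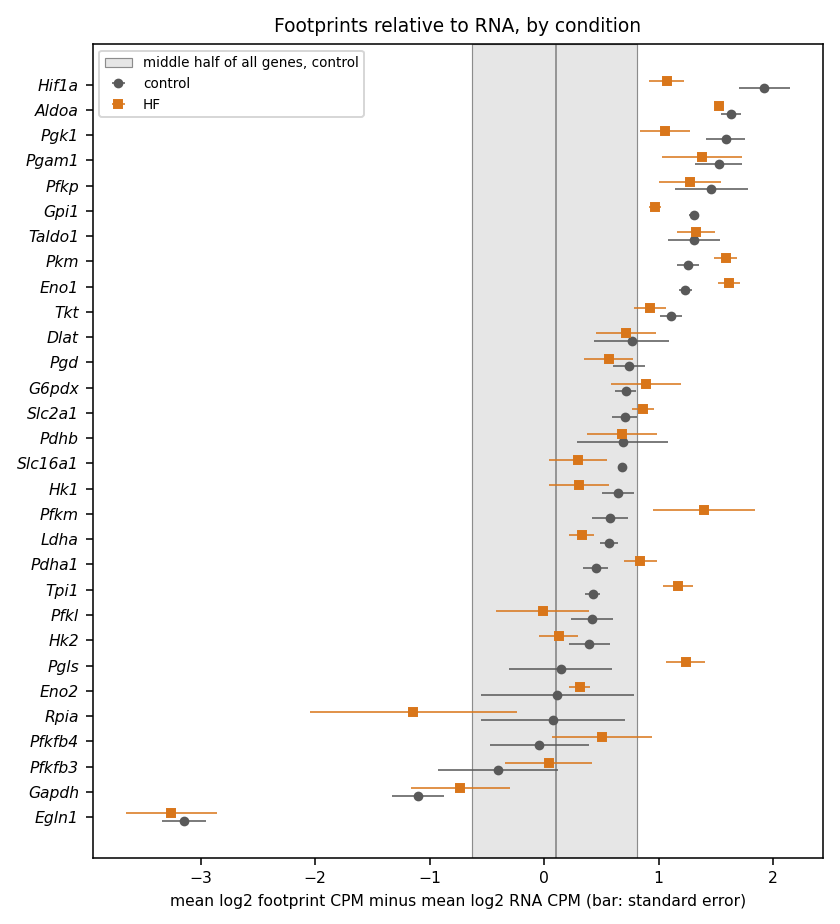
Mean log2 CPM of footprints minus mean log2 CPM of RNA (0.5 CPM added) for the 30 members in control (grey circles) and HF (orange squares) with standard errors, and the quartile range of all genes in control shaded. Most members lie above the median of all genes (0.11), and Egln1 lies far left at −3.15. Of the members called in translational efficiency, Tpi1 and Pgls shift right in HF and Hif1a shifts left. Members that were not called shift as well, such as Pfkm to the right (0.58 to 1.40) and Rpia to the left (0.076 to −1.14).

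Over the 37 members together, with both Aldoa IDs, the share of protein-coding counts was 0.604% ± 0.0190 (SD, n = 3) in control RNA and 0.422% ± 0.0126 in HF RNA, and 0.891% ± 0.0272 in control and 0.654% ± 0.0241 in HF footprints, with no overlap in either assay. The lactate members made up 0.0952% ± 0.00321 and 0.0607% ± 0.00520 in RNA and 0.113% ± 0.00533 and 0.0603% ± 0.00964 in footprints. The pyruvate dehydrogenase members were at 0.0399% ± 0.000810 in control and 0.0343% ± 0.00269 in HF RNA, without overlap, and at 0.0444% ± 0.00184 and 0.0462% ± 0.00379 in footprints, where control and HF libraries overlapped.

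Other genes of these pathways were taken from 9 lists of 111 genes. In RNA 11 of 69 tested rose and 19 fell, and in footprints 16 of 72 rose and 16 fell. Over all genes tested 22.2% rose and 21.4% fell in RNA, and 22.4% and 20.9% in footprints. Of 6 regulators of glycolysis, 4 of 5 tested were higher in RNA and 3 of 5 in footprints. This short list was chosen with earlier results of these data known, so its count does not describe such regulators as a class. Txnip, an arrestin that removes glucose transporters from the surface, rose by log2 5.54 in RNA and 5.70 in footprints (edgeR adjusted p = 1.6e-39 and 1.3e-23). Its relative Arrdc4 rose by 2.84 in RNA (edgeR adjusted p = 1.2e-06) and from a mean of 0.270 to 25.5 CPM in footprints (edgeR adjusted p = 2.5e-07), a base too low for a fold. Myc rose by 2.08 and 2.16 (edgeR adjusted p = 7.8e-25 and 8e-17). Among 19 other HIF targets, 3 of 15 rose and 4 fell in RNA, and 4 rose and 4 fell in footprints. Ndrg1 (log2 3.09 and 3.48) and the growth factor Vegfa (1.77 and 2.98) rose, and the collagen prolyl hydroxylase P4ha2 fell (−2.48 and −1.92). Vegfa also rose in translational efficiency (log2 1.21, edgeR adjusted p = 0.0018), and Lox fell in it (−0.66, edgeR adjusted p = 0.036).

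The counts that follow stand beside 22.2% of all genes higher and 21.4% lower in RNA, and 22.4% and 20.9% in footprints. Of 10 genes of the HIF machinery other than the members, 2 rose and 3 fell of 9 tested in RNA, and 4 rose and 2 fell of 7 in footprints. Among those that hold Hif1a in check, Vhl, which marks it for degradation, rose by log2 1.28 in RNA and 1.40 in footprints, and the asparaginyl hydroxylase Hif1an by 0.85 and 0.93 (edgeR adjusted p 1e-07 to 0.0012). Egln2 RNA fell by 1.92 on the log2 scale, and its footprints were too few to be tested. Of the other subunits of the Vhl ubiquitin ligase, Rbx1 fell in RNA and footprints (−0.64 and −0.73, edgeR adjusted p = 0.0097 and 0.00097), Elob fell in RNA (−0.63, edgeR adjusted p = 0.0099) and Eloc rose in footprints (0.80, edgeR adjusted p = 0.00013). Arnt, the partner of Hif1a, rose in footprints (0.92, edgeR adjusted p = 0.00031), and Cul2 fell in translational efficiency (−1.11, edgeR adjusted p = 0.0085). Among other pentose phosphate and ribose genes, H6pd, the dehydrogenase of the endoplasmic reticulum, fell with G6pdx (log2 −2.02 and −1.42), and Prpsap1 fell as well (−0.72 and −0.47). The NAD kinase Nadk fell in RNA (−0.63) and rose in footprints (1.11), with a rise in translational efficiency of 1.74 (edgeR adjusted p = 1.6e-08). Basigin (Bsg), the chaperone of the lactate carriers, did the same, at −0.70 in RNA, 0.48 in footprints and 1.19 in translational efficiency (edgeR adjusted p = 1.8e-09), and its relative Emb fell in RNA (−1.29, edgeR adjusted p = 0.048). Other glycolytic isozymes gave 1 higher and 2 lower of 5 tested in RNA, with Adpgk at log2 0.63, Eno3 at −1.27 and Bpgm at −1.88.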

How the data were processed

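Total RNA and ribosome footprints of mouse embryonic fibroblasts were analysed from 12 deposited tables of read counts per Ensembl gene, 1 a library. The authors made these counts with Bowtie, HISAT2 and HTSeq on GRCm38, per the submitters' processing notes. The versions, the order of the tools, the feature and strand counted and the treatment of reads with several matches were not given in the sources used here. Even values prevailed among low counts (in RNA control 1, 419 genes had 1 count and 1541 had 2), so halved counts were tried. The tables held 0 rows that name no gene. Symbols and gene types came from the supplied reference tables: 55450 of 55536 IDs had a symbol, and all 37 members matched.

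RNA and footprints were fitted separately with edgeR 4.0.16 (R 4.3.3) by the quasi-likelihood test with TMM factors and filterByExpr (minimum count 10). Footprints were tested on protein-coding genes. Translational efficiency was the assay by treatment interaction over all libraries, with TMM within each assay. P-values were adjusted by Benjamini-Hochberg over all genes tested, and the threshold was 0.05. Footprints relative to RNA were described by the difference of mean log2 CPM (0.5 CPM added), in place of the planned log2 ratio of mean CPM. Isozyme ratios (0.5 counts added) were compared by a two-sided exact permutation test. The scripts were tested on simulated data. Intervals are 95% intervals of the fit.

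Values in every library were printed for members called with a log2 change of at least 0.58 and for Slc2a1, Hk2, Gapdh, Pkm, Ldha, G6pdx and Hif1a, and for some others after their values were seen (Pfkp, Pfkfb3, Pdha1 and the members under the filter). Of each other list, up to 3 called genes with the largest change and a mean log2 CPM of at least 3 were open to naming in each comparison. Rbx1, Elob and Eloc were named after their values were seen. The members and lists were chosen with earlier results of these data known. Alternatives were RLE and upper-quartile factors, DESeq2 1.42.0, no filter, halved counts, no Gm42418 row, all genes for footprints, a replicate block and each library left out. A footprint level per coding length and proline content were not analysed here. RefSeq promoter windows were searched on both strands.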

Additional observations from a re-analysis of the deposited data

How the results depend on the processing

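The members called lower numbered 16 to 18 in RNA and 14 to 16 in footprints under the alternatives that kept all libraries (18 and 15 as reported), and 15 to 18 and 13 to 15 with 1 library left out. The members called higher were 2 with DESeq2 in RNA and 2 to 4 with 1 library left out, in RNA and in footprints alike, and in translational efficiency 1 to 4 were higher and 1 to 2 lower with 1 library left out. Libraries of the same number showed no shared deviation (correlations −0.036 to 0.019). At this depth the spread of low counts could hide such a deviation, so pairing by number was neither shown nor excluded. With the number as a replicate block, 4 members rose and 18 fell in RNA, 2 and 16 in footprints, and 3 and 1 in translational efficiency. Some changes that were not called turned sign: Pdhb footprints to −0.0317 with upper-quartile factors, Taldo1 translational efficiency to −0.0203 with no filter, and the log2 ratio of Ldhb to Ldha footprints to 0.28 with a pseudocount of 1 count. With 1 library left out the log2 change crossed 0 in RNA for Pfkfb3 (−0.018 to 0.96), Rpia (−0.0559 to 0.85) and Pdhb (−0.41 to 0.12). It did so in footprints for Tpi1 (−0.0963 to 0.0166), Pkm (−0.15 to 0.0139), Rpia (−0.57 to 0.20), Pdhb (−0.22 to 0.18) and Hif1a (−0.13 to 0.0877), and in translational efficiency for Pgam1 (−0.34 to 0.17), Eno2 (−0.58 to 0.77), G6pdx (−0.0157 to 0.49), Pgd (−0.34 to 0.0273), Taldo1 (−0.13 to 0.25), Pdhb (−0.0655 to 0.46), Dlat (−0.41 to 0.0964) and Egln1 (−0.30 to 0.052). The differences in isozyme ratios that crossed 0 were Pfkm to Pfkl footprints (−0.14 to 0.74), Aldoc to Aldoa RNA (−0.87 to 0.39), Ldhb to Ldha RNA (−1.35 to 0.12) and Ldhb to Ldha footprints (−1.44 to 0.92). The cause was not tested. Eno1 footprints passed under RLE factors, upper-quartile factors, no filter, halved counts and the block (adjusted p 0.00928 to 0.0497), Pkm translational efficiency with the block (0.049) and Pfkp footprints with halved counts (0.045). Slc2a1 RNA was lost with upper-quartile factors (0.065) and DESeq2 (0.053), Hk2 RNA with DESeq2 (0.0501), Taldo1 RNA with no filter (0.061), and Gapdh footprints with no filter (0.05004) and all genes (0.053). Upper-quartile factors moved the median footprint change of all genes to −0.10. Depth limited Slc16a3, Pdk1, Pfkfb2, Ldhb, Aldoc, Egln3 and Bnip3, which had few reads.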

Other observations

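A list of 13 genes of gluconeogenesis and glycogen gave 1 lower of 7 tested in RNA and 4 lower of 8 in footprints, beside 21.4% and 20.9% of all genes, and none rose. Gyg, the primer of glycogen synthesis, fell in RNA (log2 −1.06, edgeR adjusted p = 0.0067). The branching enzyme Gbe1 (−1.12, edgeR adjusted p = 0.012) and Ugp2, which makes UDP-glucose (−0.70, edgeR adjusted p = 0.0071), fell in footprints. In the hexosamine, galactose and mannose list, Gfpt1, the entry enzyme of the hexosamine pathway, rose in RNA (log2 0.60, edgeR adjusted p = 0.0025) with footprints at 0.03 (edgeR adjusted p = 0.88). Pgm3 footprints fell (−1.48, edgeR adjusted p = 0.00016), and Uap1, which acts after it, rose in footprints (0.69) and in translational efficiency (1.10, edgeR adjusted p = 0.016). Galk1 fell in RNA (−1.23) and in footprints (−1.01), and Pmm1 in RNA (−0.76). Of other pyruvate enzymes, the kinase Pdk3 fell in RNA (−0.98, edgeR adjusted p = 0.00082), the phosphatase Pdp2 in both assays (−0.96 and −1.15), and Dld rose in footprints (0.46, edgeR adjusted p = 0.0087).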
